A study of Bos taurus with 48 samples.

Results

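Pregnant dairy cows that carried the label Fertile were compared with pregnant cows labelled Sub-fertile, across all genes of the array, in endometrium collected on day 17. The class was read from the end of each sample title, which gave 6 Fertile and 6 Sub-fertile cows. A single cow is named by the number in the title of its samples after F (Fertile) or S (Sub-fertile). Each cow gave caruncular and intercaruncular endometrium, so the comparison used 24 samples on 25 arrays (1 caruncular sample of a Fertile cow was hybridised again and its arrays were averaged), out of 44 samples on 48 arrays from 22 cows in the whole series. All 12 cows were lactating Holstein Friesians that received a grade 1 embryo on day 7 and were slaughtered on day 17. The conceptus was labelled large in 3 Fertile and 4 Sub-fertile cows, and small in 3 and 2. The remaining 10 cows were cyclic, carried no embryo, and are given beside the pregnant cows as a background. How a cow was classed as Fertile or Sub-fertile is not given in the sources used here, and neither is the ancestry of the single cows, which came from a herd of mixed New Zealand and North American lines.

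The bovine endometrium has 2 zones. Caruncles are the gland-free knobs where the placenta will attach, and the intercaruncular tissue between them carries the uterine glands that feed the elongating conceptus with secreted proteins, sugars and amino acids (histotroph). At this stage of pregnancy the trophoblast secretes interferon tau, a type I interferon that induces many antiviral genes in the uterus, and that prevents the rise of the oxytocin receptor that would otherwise start the pulses of prostaglandin which end the corpus luteum. The endometrium is then under progesterone, and most of its secreted products depend on that hormone.

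Sample RNA carried Cy5 and was hybridised together with a Cy3-labelled pool, and a level is given throughout as the log2 ratio of sample to pool, centred on the median of its array. A level of 1 is thus 2 times the pool, and levels of different genes were not compared. A difference is the mean of the Sub-fertile cows less the mean of the Fertile cows on the same scale. Because whole tissue was used, fewer cells of a type and less RNA per cell cannot be told apart. Of 21475 probes, 14717 passed a filter on dim signals modelled on that of the study and were tested. In each tissue 1 slide held 2 cows of either class, 1 held 4 Fertile cows and 1 held 3 Sub-fertile cows with a cyclic cow, so that slide and class were largely shared. The last Sub-fertile cow, S9790, was hybridised on a slide scanned later, and had 82.4% (caruncular) and 84% (intercaruncular) of spots well above background, against at most 73.3% and 79.9% in the Fertile cows. Signal over background of the intercaruncular arrays ran from 8.96 to 17 (median 10.3) in Fertile and from 12.6 to 29.2 (median 17.3) in Sub-fertile cows (two-sided exact permutation test, p = 0.0195, adjusted p = 0.117 over 6 measures). The 4 Fertile cows on a slide of their own ran from 8.96 to 10.3. On the shared slide the Fertile cows were at 14.7 and 17 and the Sub-fertile cows both at 18.4. The test exchanged cows without regard to slide, so it cannot tell class from slide. Of the markers of the trophoblast, 2 of 10 listed genes passed the filter (HAND1 and PAG1), and the interferon tau gene was not among them.

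The classes differed at few genes. At an adjusted p under 0.05 by limma with Benjamini-Hochberg adjustment, 7 intercaruncular probes (0.0476% of 14717) passed, 6 of them higher and 1 lower in Sub-fertile cows, all by at least 1.5-fold. In caruncular tissue 0 probes passed (0%), with a smallest adjusted p of 0.226, while 2026 probes (13.8%) had an unadjusted p under 0.05. On the mean of both tissues of a cow 2 probes passed (0.0136% of 14716), PCK1 lower and TFAP2C higher in Sub-fertile cows. The interaction of class and tissue, which tests whether the difference depends on the tissue, gave 0 calls (0%) by limma, with a smallest adjusted p of 0.0767. That fit treated the 2 tissues of a cow as independent samples, although they deviated together in all 12 cows (correlations 0.336 to 0.722). At an unadjusted p under 0.05, 868 probes passed (5.90%), 3.21% with the caruncular difference above and 2.68% with it below the intercaruncular one. The 0 calls at an adjusted p under 0.05 became 6 with a random replicate block for the cow, and stayed at 0 with a fixed replicate block.

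**Figure D1:**
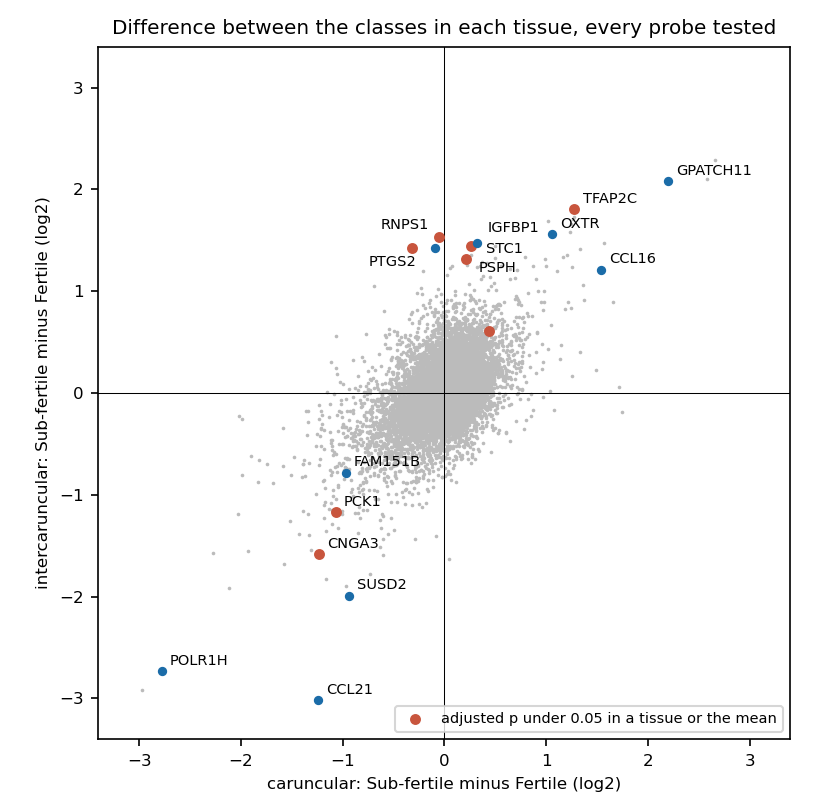
Difference between Sub-fertile and Fertile cows (log2) in caruncular tissue on the x axis and in intercaruncular tissue on the y axis, for 14717 probes, with the probes called by limma in red. PCK1 and TFAP2C lie away from 0 in both tissues, while STC1 and PSPH lie near 0 on the caruncular axis and above 1 on the intercaruncular axis.

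Single genes could separate the classes without reaching the adjusted threshold. Every Sub-fertile cow lay above every Fertile cow at 76 caruncular probes (0.518%) and 113 intercaruncular probes (0.770%), and below every Fertile cow at 36 (0.245%) and 94 (0.640%). On the mean of both tissues the shares were 0.764% above and 0.661% below. A gene whose classes did not overlap is therefore 1 of many such values, and is given below as a level and not as a call. The differences over all probes were centred near 0, with medians of 0.03 in caruncular and -0.01 in intercaruncular tissue.

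PCK1, the cytosolic phosphoenolpyruvate carboxykinase that commits carbon to gluconeogenesis, was lower in Sub-fertile cows. Its caruncular level ran from -0.76 to -0.13 with a median of -0.49 in Fertile cows, and from -2.14 to -1.04 with a median of -1.50 in Sub-fertile cows. Its intercaruncular level ran from 0.42 to 1.20 (median 0.75) in Fertile and from -0.79 to 0.12 (median -0.39) in Sub-fertile cows. The classes did not overlap in either tissue. On the mean of both tissues PCK1 fell by 1.12 (SE 0.12), a 2.17-fold difference (adjusted p = 0.00764), and the difference was -1.07 (SE 0.18, adjusted p = 0.226) in caruncular and -1.17 (SE 0.19, adjusted p = 0.0597) in intercaruncular tissue alone. Cyclic cows spread across both classes, from -2.22 to 0.09 in caruncular and from -1.21 to 1.91 in intercaruncular tissue. The probe was well above background on 3 of 6 caruncular arrays of Sub-fertile cows and on every array of the Fertile cows. Between the 4 cows that shared a slide the difference was -1.68 in caruncular and -0.55 in intercaruncular tissue.

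TFAP2C, the transcription factor AP-2 gamma, best known from trophoblast and other surface epithelia, was higher in Sub-fertile cows. The intercaruncular level ran from -1.43 to -0.71 (median -0.91) in Fertile and from 0.30 to 1.60 (median 0.75) in Sub-fertile cows, with a wide gap between the classes. It was 3.49-fold up-regulated there (1.80, SE 0.22, adjusted p = 0.00897) and 2.91-fold on the mean of both tissues (1.54, SE 0.19, adjusted p = 0.0251). In caruncular tissue, where Fertile cows ran from -0.92 to 0.59 and Sub-fertile cows from 0.50 to 1.24, the classes overlapped by a narrow margin (difference 1.27, SE 0.25, adjusted p = 0.226). Cyclic cows had medians of 0.70 and 0.46, nearer to the Sub-fertile than to the Fertile cows. Between cows of 1 slide TFAP2C differed by 1.02 in caruncular and 1.42 in intercaruncular tissue.

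**Figure D2:**
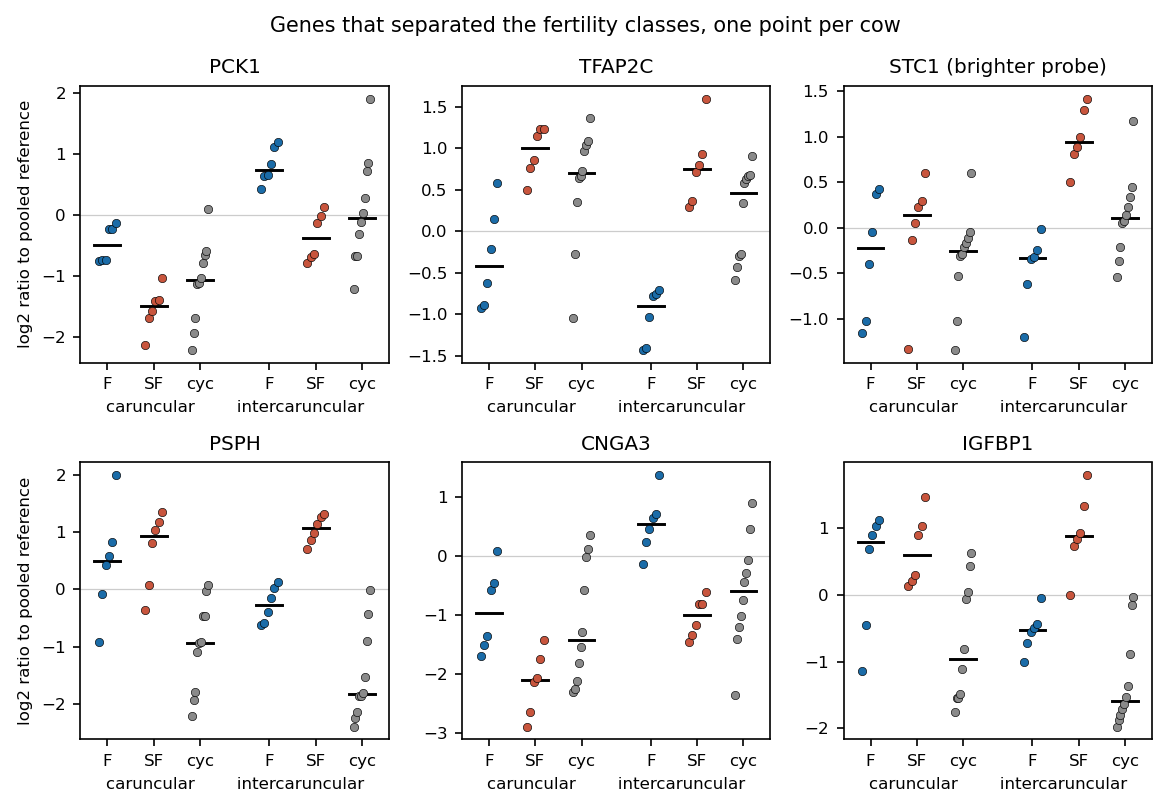
Level (log2 ratio to the pool, y axis) of PCK1, TFAP2C, STC1 (the brighter probe), PSPH, CNGA3 and IGFBP1 in each cow, by tissue and by class with cyclic cows beside them. Each point is a cow and each bar the median of its class, and the 2 classes of pregnant cows are apart in intercaruncular tissue in all 6 panels.

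STC1 and PSPH were up-regulated in intercaruncular tissue of Sub-fertile cows. STC1 encodes stanniocalcin 1, a glycoprotein hormone that the uterine glands of ruminants secrete, and it was measured by a pair of probes. The brighter probe ran from -1.20 to -0.02 (median -0.33) in Fertile and from 0.50 to 1.42 (median 0.94) in Sub-fertile cows, without overlap, and was 2.72-fold higher (1.44, SE 0.20, adjusted p = 0.0265). The dimmer probe gave a 2.69-fold difference (1.43, SE 0.16, adjusted p = 0.00897), although it was well above background on 2 of 6 arrays of Fertile cows. In caruncular tissue the STC1 classes overlapped, with differences of 0.26 (SE 0.36, adjusted p = 0.759) and -0.32 (SE 0.30, adjusted p = 0.651). The caruncular less the intercaruncular difference was -1.18 (adjusted p = 0.818) and -1.74 (adjusted p = 0.464), and with a random replicate block for the cow the dimmer probe reached an adjusted p of 0.0159.

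PSPH, the phosphatase that makes serine in the last step of its synthesis, had intercaruncular levels from -0.62 to 0.13 (median -0.27) in Fertile and from 0.71 to 1.31 (median 1.07) in Sub-fertile cows. The classes were apart and the difference was 2.49-fold (1.32, SE 0.16, adjusted p = 0.00897). Cyclic cows lay lower than both, with a median of -1.83 and a highest value of -0.02. The caruncular values spread from -0.92 to 2.00 in Fertile and from -0.36 to 1.36 in Sub-fertile cows, and PSPH did not pass there (difference 0.22, SE 0.44, adjusted p = 0.846). Whether the PSPH difference depends on the tissue did not pass the threshold either (adjusted p = 0.827, or 0.213 with a random replicate block for the cow).

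CNGA3, a subunit of a cation channel opened by cyclic nucleotides, was the only probe called lower in intercaruncular tissue of Sub-fertile cows by limma. It ran from -0.13 to 1.38 (median 0.55) in Fertile and from -1.46 to -0.61 (median -0.99) in Sub-fertile cows. The CNGA3 classes did not overlap, and the level fell by 1.58 (SE 0.23, adjusted p = 0.0286), or 3.0-fold. The caruncular difference was -1.23 (SE 0.33, adjusted p = 0.274), with all 6 Sub-fertile cows under the mean of the Fertile cows.

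GAS7, which encodes a protein of the actin cytoskeleton, and RNPS1, which encodes a protein bound to spliced messages, were the other 2 genes called higher. One GAS7 probe ran from -0.67 to -0.41 in Fertile and from -0.08 to 0.29 in Sub-fertile cows, a 1.53-fold difference (0.61, SE 0.09, adjusted p = 0.0286). The other 2 probes of GAS7 showed differences of 0.07 and 0.42 and were not called. RNPS1 was 2.89-fold higher (1.53, SE 0.18, adjusted p = 0.0217), yet only 4 Fertile cows gave a value, since all spots of the other 2 were marked as outliers by the scanner software. Those 4 Fertile cows shared a slide with no other class and ran from -0.34 to 0.34, against 0.97 to 1.74 in the 6 Sub-fertile and 1.30 to 1.80 in 5 cyclic cows. A second probe with the accession of RNPS1, described on the array as another gene, differed by 0.01 (adjusted p = 0.947), so the identity of this probe is uncertain.

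Of the calls, those of PCK1 (mean of both tissues) and of TFAP2C, PSPH and the dimmer STC1 probe (intercaruncular) stayed in all 12 fits that left out 1 cow. The brighter STC1 probe stayed in 5, RNPS1 in 6, CNGA3 in 4 and GAS7 in 2 of 12, and TFAP2C on the mean of both tissues in 5. With the slide as a fixed block 0 intercaruncular probes passed the threshold by limma (1320 had an unadjusted p under 0.05), and without cow S9790, or with the scan date as a block, 43 did. The scan date set apart cow S9790, so these last 2 fits are not separate checks. Within the slide, PSPH differed by 1.72 in intercaruncular tissue, STC1 by 1.58 (brighter probe) and 1.11, CNGA3 by -1.32 and the called GAS7 probe by 0.51. In caruncular tissue the within-slide differences were -0.22 for PSPH and -0.95 (brighter probe) and -1.43 for STC1, opposite in sign to the intercaruncular ones. They were -1.84 for CNGA3 and 0.59 for the GAS7 probe. With normexp background correction and loess in place of the processed ratios, the dimmer STC1 probe differed by 0.79 (adjusted p = 0.0137) and PCK1 by -0.71 on the mean of both tissues (adjusted p = 0.0117). Of 8 listed epithelial markers 7 passed the filter and 2 of these (ELF3 and CLDN4) had an unadjusted p under 0.05, both higher in Sub-fertile cows (background 6.64% higher and 6.96% lower). Of the 7 differences 5 were above 0 and none was called, and the mean level of the 7 ran from -0.38 to 0.07 in Fertile and from 0.00 to 0.56 in Sub-fertile cows. Of 6 markers of ciliated cells 2 were lower at an unadjusted p under 0.05, all 6 differences were below 0, and mean levels ran from 0.03 to 0.58 in Fertile and from -0.94 to 0.27 in Sub-fertile cows. The part of the cell makeup, of the slide and of the signal over background in these differences was not tested.

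Several further genes had classes apart in intercaruncular tissue and an adjusted p between 0.05 and 0.1. IGFBP1, a binding protein of insulin-like growth factors that the ruminant uterus secretes, ran from -1.0 to -0.04 (median -0.53) in Fertile and from just under 0 to 1.80 (median 0.88) in Sub-fertile cows, a difference of 1.48 (SE 0.26, adjusted p = 0.0819). Cyclic cows had a median of -1.59, so the Fertile cows lay between them and the Sub-fertile cows. PTGS2, the inducible cyclooxygenase that starts prostaglandin synthesis, ran from -2.08 to -0.27 in Fertile and from 0.07 to 1.19 in Sub-fertile cows (1.43, SE 0.29, adjusted p = 0.0941). In caruncular tissue both genes overlapped, with differences of 0.32 for IGFBP1 and -0.09 for PTGS2, and the 4 cows of 1 slide gave -1.46 for caruncular PTGS2. BACE2, a membrane-bound aspartyl protease, had intercaruncular levels from -0.71 to 0.03 and from 0.49 to 1.05 (0.82, SE 0.15, adjusted p = 0.0819). Its difference was -0.09 in caruncular tissue, and the contrast of the tissues was -0.91 (adjusted p = 0.543, or 0.0417 with a random replicate block for the cow).

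On the lower side, SUSD2, a membrane protein with a sushi domain, ran from -0.24 to 1.59 (median 0.37) in Fertile and from -2.26 to -0.55 (median -1.67) in Sub-fertile cows. The difference was -1.99 (SE 0.35, adjusted p = 0.0819), a 3.97-fold lower mean, and every Sub-fertile cow was under every Fertile cow. ADCY8, an adenylyl cyclase activated by calcium, had levels from -0.64 to 0.77 and from -2.19 to -0.81 (-1.43, SE 0.26, adjusted p = 0.0819), with a caruncular difference of -0.29. TIGD6, a gene derived from a transposase, ran from 0.33 to 0.76 and from -0.68 to 0.24 (-0.88, SE 0.14, adjusted p = 0.0570). Between cows of 1 slide the 3 genes differed by -2.31, -1.95 and -1.19.

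In caruncular tissue the genes of lowest p were not called, and most showed a like difference in the other tissue. FAM151B ran from -0.05 to 0.65 in Fertile and from -1.06 to -0.24 in Sub-fertile cows (-0.97, SE 0.16, adjusted p = 0.226), and its intercaruncular difference was -0.78. CPEB4, which binds the tails of messages and controls their translation, had caruncular levels from -0.02 to 0.49 and from -0.66 to -0.11 (-0.65, SE 0.12), and -0.41 in intercaruncular tissue. WNT6, a secreted WNT ligand, ran from -0.88 to -0.24 and from -0.16 to 0.54 (0.76, SE 0.14), with 0.73 in intercaruncular tissue. All 3 separated the classes in caruncular tissue. KLF4, a transcription factor of epithelial differentiation, had caruncular levels from 0.28 to 1.42 in Fertile and from -0.53 to 0.38 in Sub-fertile cows (-0.92, SE 0.20, adjusted p = 0.226). The KLF4 values of cyclic cows, from -0.73 to 0.38, spanned much the same range as those of the Sub-fertile cows.

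OXTR, the oxytocin receptor, was lower in caruncular tissue of pregnant cows of both classes than in cyclic cows, with the lowest median in Fertile cows. Caruncular levels ran from -3.59 to -2.17 (median -2.50) in Fertile and from -2.08 to -1.11 (median -1.77) in Sub-fertile cows, without overlap. Cyclic cows had OXTR levels from -0.71 to 2.13 (median 0.83), above every pregnant cow. The caruncular difference of 1.06 (SE 0.25, adjusted p = 0.261) and the intercaruncular difference of 1.56 (SE 0.60, adjusted p = 0.291) were not called. Between cows of 1 slide OXTR differed by 0.91 in caruncular and 0.48 in intercaruncular tissue. In intercaruncular tissue the Sub-fertile cows spread widely, from -3.25 to 1.03 with a median of -1.14, while 5 of the 6 Fertile cows lay between -2.93 and -2.33 and the sixth at -3.88. Cow S3803, at 1.03, lay near the cyclic median of 1.04, cow S9790, at -0.38, lay within the cyclic range, and the other Sub-fertile cows, up to -0.89, lay under the lowest cyclic cow at -0.59.

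The list of prostaglandin and luteolysis genes, to which OXTR and PTGS2 belong, had 25 of 34 members past the filter. In caruncular tissue 3 were higher and 2 lower at an unadjusted p under 0.05, where 7.01% and 6.75% of all probes were, and in intercaruncular tissue 3 were higher and 1 lower, against 6.64% and 6.96%. No member was called, and the median differences were 0.05 and -0.01. PTGES3, a cochaperone described as a prostaglandin E synthase, differed by 0.25 (SE 0.10) and 0.28 (SE 0.12). Among 26 steroid receptor genes and partners past the filter, PGR, the progesterone receptor, differed by -0.40 (SE 0.16, adjusted p = 0.324) in caruncular and -0.11 in intercaruncular tissue, and ESR1, the oestrogen receptor alpha, by 0.31 and 0.11. NR3C1, the glucocorticoid receptor, had a caruncular difference of -0.76 (SE 0.24), and HSD17B1, which makes oestradiol from oestrone, one of 0.55 (SE 0.15). None of these passed the threshold of limma.

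**Figure D3:**
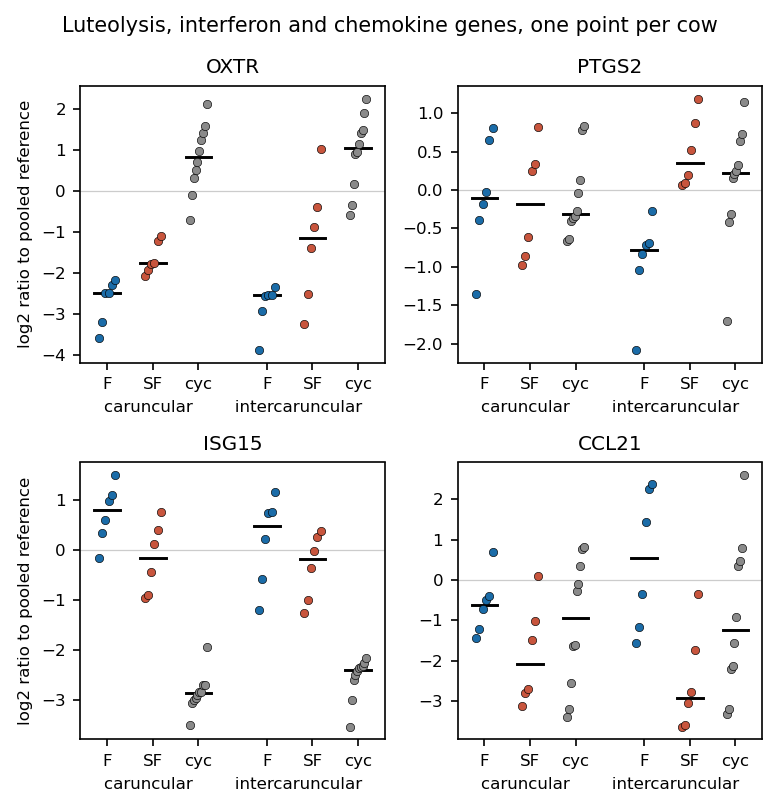
Level (log2 ratio to the pool, y axis) of OXTR, PTGS2, ISG15 and CCL21 in each cow by tissue and class, with cyclic cows beside the 2 classes; points are cows and bars medians. OXTR and ISG15 set cyclic apart from pregnant cows in caruncular tissue, and CCL21 spreads over several log2 units within each class.

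Genes of the type I interferon response lay far above the cyclic level in every pregnant cow. The mean level of the 42 of 54 listed genes that passed the filter ran from 0.27 to 1.20 (median 1.00) in caruncular tissue of Fertile cows and from -0.26 to 0.97 (median 0.35) in that of Sub-fertile cows, while cyclic cows lay between -2.08 and -1.67. In intercaruncular tissue it ran from -0.53 to 0.64 (median 0.42) and from -0.61 to 0.43 (median 0.20), against -2.05 to -1.66 in cyclic cows. No pregnant cow reached into the cyclic range, and the classes overlapped in both tissues. In caruncular tissue 18 of 42 genes had a lower level in Sub-fertile cows at an unadjusted p under 0.05 and 1 a higher one (background 6.75% and 7.01%), with a median difference of -0.53, and 39 of the 42 differences were at or below 0. In intercaruncular tissue the counts were 1 lower and 0 higher (background 6.96% and 6.64%), with a median of -0.15. On the mean of both tissues 8 were lower and 0 higher (background 6.62% and 7.11%). No member was called in any of these comparisons.

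The count of 18 varied with the cows and the settings used. It was 7 without cow S977 or without cow S3807, 8 without cow F932, 9 without cow F1943, 11 without cow S9790, and 29 without cow S9921. It was 0 with the slide as a fixed block, 8 by the methods' t-test and 32 with embryo size as a covariate. With the scan date as a block, which set apart cow S9790, it was 11, as without that cow. Between the 4 cows of the shared slide the caruncular differences were -0.87 for EIF2AK2, -1.04 for USP18, -0.74 for ISG15 and -1.08 for IFIT3. They were -0.11 for OAS2, 0.05 for MX2 and -0.74 for RSAD2. In intercaruncular tissue the cows of the shared slide differed by 0.28 for EIF2AK2, 0.02 for USP18, 0.46 for ISG15 and 0.63 for IFIT3. OAS2, MX2 and RSAD2 differed there by 0.79, 0.63 and 0.30. Of the markers of neutrophils 3 of 6 passed the filter, and 1 (S100A12) was lower in caruncular tissue of Sub-fertile cows at an unadjusted p under 0.05 (background 6.75%). The mean level of the 3 ran from -0.54 to 0.42 in Fertile and from -1.66 to 0.35 in Sub-fertile cows, and its part in the result was not tested.

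Single interferon genes showed how the classes overlapped. EIF2AK2, the kinase that halts translation on double-stranded RNA, ran in caruncular tissue from 0.57 to 1.49 (median 1.03) in Fertile and from -0.34 to 0.63 (median 0.01) in Sub-fertile cows (-0.90, SE 0.21, adjusted p = 0.236). Its intercaruncular difference was -0.04 (SE 0.24), and the contrast of the tissues was -0.86 (adjusted p = 0.818). IFIT3, an antiviral protein, had caruncular levels from -0.29 to 2.26 and from -1.41 to 0.95 (-1.38, SE 0.48, adjusted p = 0.291). USP18, which removes ISG15 from proteins, differed by -1.18 (SE 0.39), RSAD2, the antiviral viperin, by -0.97 (SE 0.41), and ISG15 itself, a ubiquitin-like modifier, by -0.90 (SE 0.34) in caruncular tissue. MX2 and OAS2, which act against viruses as a GTPase and as a sensor of double-stranded RNA, overlapped widely, with caruncular differences of -0.44 (SE 0.32) and -0.72 (SE 0.39) and intercaruncular ones of 0.35 (SE 0.52) and -0.26 (SE 0.41). IDO1, which breaks down tryptophan and restrains T cells, had caruncular levels from -1.12 to 2.07 (median 1.59) in Fertile and from -2.58 to 0.92 (median -0.74) in Sub-fertile cows (-1.59, SE 0.64, adjusted p = 0.320). Between cows of 1 slide IDO1 differed by -0.48 in caruncular and 1.80 in intercaruncular tissue.

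**Figure D4:**
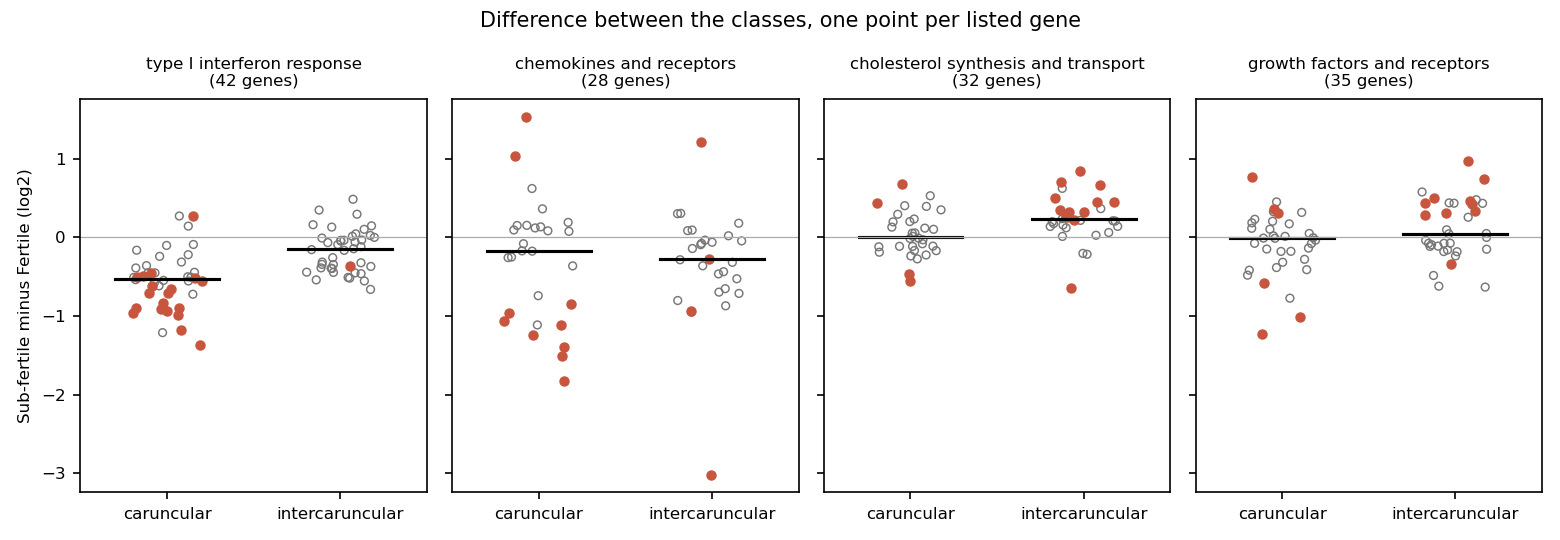
Difference between Sub-fertile and Fertile cows (log2, y axis) of the genes of 4 lists (42 interferon response, 28 chemokine, 32 cholesterol and 35 growth factor genes), in each tissue (x axis). Each dot is a gene, filled red where the unadjusted p is under 0.05, and each bar the median of the list, which lies at -0.53 for interferon genes in caruncular and at 0.23 for cholesterol genes in intercaruncular tissue.

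Chemokines and their receptors had 28 of 38 genes past the filter. In caruncular tissue 8 were lower and 2 higher at an unadjusted p under 0.05 (background 6.75% and 7.01%, median -0.17). In intercaruncular tissue 3 were lower and 1 higher (background 6.96% and 6.64%, median -0.28), and limma gave 0 calls in both tissues. The caruncular count of 8 was 1 without cow F932 or without cow S977 and 3 with the slide as a block. CCL21, which draws lymphocytes and dendritic cells that carry CCR7, spread most. It ran in intercaruncular tissue from -1.56 to 2.38 (median 0.55) in Fertile and from -3.63 to -0.34 (median -2.91) in Sub-fertile cows, and the classes overlapped. The difference of -3.02 (SE 0.79), an 8.10-fold lower mean, did not pass (adjusted p = 0.168), and the probe was well above background on 3 of 6 arrays of Sub-fertile cows. Cyclic cows ran from -3.32 to 2.6. CCL16 lay higher in Sub-fertile cows in both tissues, by 1.53 (SE 0.36) in caruncular tissue and by 1.21 (SE 0.29, adjusted p = 0.156) in intercaruncular tissue, where Fertile cows ran from -1.57 to 0.40 and Sub-fertile cows from 0.53 to 1.13 without overlap. CXCL11, an interferon-induced ligand of CXCR3, differed by -1.51 (SE 0.58), CCL2, which attracts monocytes, by -1.06 (SE 0.41), and CCL14 by -0.85 (SE 0.37) in caruncular tissue.

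Complement genes, of which 22 of 30 passed the filter, had 3 lower and 0 higher members in each tissue (background 6.75% and 7.01% in caruncular, 6.96% and 6.64% in intercaruncular tissue), with medians of -0.30 and -0.29. CFI, the protease that inactivates C3b and C4b, ran in caruncular tissue from -0.15 to 0.34 (median 0.10) in Fertile and from -1.48 to -0.41 (median -0.55) in Sub-fertile cows, without overlap. Its difference was -0.84 (SE 0.18, adjusted p = 0.226), and -0.97 (SE 0.23, adjusted p = 0.156) in intercaruncular tissue, where the classes overlapped from 0.03 to 0.08. PTX3, a soluble pattern recognition protein, varied over more than 4 log2 units among caruncular samples of Sub-fertile cows (-4.08 to 0.69), and its difference of -1.98 (SE 0.73) was not called.

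Genes of cholesterol synthesis and transport had most of their low p values in intercaruncular tissue. Of 33 listed genes 32 passed the filter. In intercaruncular tissue 14 were higher and 1 lower in Sub-fertile cows at an unadjusted p under 0.05 (background 6.64% and 6.96%), with a median of 0.23. In caruncular tissue 2 were higher and 2 lower (background 7.01% and 6.75%), with a median of 0.00. The mean level per cow in intercaruncular tissue ran from -0.38 to -0.02 (median -0.10) in Fertile and from 0.04 to 0.16 (median 0.09) in Sub-fertile cows, without overlap, and from -0.36 to 0.15 in cyclic cows. The gap between the classes, from -0.02 to 0.04, was narrow, and this was 1 of many list means. Of single intercaruncular probes 1.41% had classes without overlap, and no such share was computed for list means. The contrast of the tissues had an unadjusted p under 0.05 at 5 of 32 genes, all with the larger difference in intercaruncular tissue, as at 2.68% of all probes. None was called. The count of 14 was 7 with the slide as a block and 9 with cyclic cows in the fit, and 11 to 14 when 1 cow was left out.

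CYP51A1, the demethylase of lanosterol, ran in intercaruncular tissue from -0.57 to -0.11 (median -0.39) in Fertile and from -0.12 to 1.41 (median 0.39) in Sub-fertile cows (0.85, SE 0.21, adjusted p = 0.156), with 0.12 in caruncular tissue. MSMO1, the oxidase that acts after it in the removal of methyl groups from the sterol, had levels from -0.74 to 0.37 and from 0.33 to 0.74 (0.67, SE 0.15, adjusted p = 0.155). MVK, mevalonate kinase, which acts before sterols are formed, had classes apart in caruncular tissue (-0.57 to -0.10 and 0.07 to 0.38; 0.44, SE 0.09, adjusted p = 0.226) and a smaller intercaruncular difference of 0.26 (SE 0.10). SCARB1, the receptor that takes up cholesterol from high-density lipoprotein, went the other way. It differed by -0.56 in caruncular, -0.64 in intercaruncular tissue and -0.60 (SE 0.09, adjusted p = 0.0556) on the mean of both, with all 6 Sub-fertile cows under the mean of the Fertile cows in each tissue.

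Growth factors and their receptors had 35 of 48 genes past the filter, with 9 higher and 1 lower in intercaruncular tissue (background 6.64% and 6.96%, median 0.05). In caruncular tissue 3 were higher and 3 lower (background 7.01% and 6.75%, median -0.01). Leaving out 1 cow gave 7 to 10. PDGFB, a ligand of the receptors for platelet-derived growth factor, ran from -0.48 to 0.57 (median -0.24) in Fertile and from 0.65 to 1.10 (median 0.98) in Sub-fertile cows, without overlap (0.97, SE 0.19, adjusted p = 0.0941), and by 0.39 between cows of 1 slide. Cyclic cows had a PDGFB median of 1.38. MET, the receptor of hepatocyte growth factor, differed by 0.50 (SE 0.14), and KDR, the main signalling receptor of VEGF, by 0.43 (SE 0.13). AREG, a ligand of the EGF receptor, was the main member on the lower side, in caruncular tissue, with levels from -0.95 to -0.04 in Fertile and from -2.65 to -0.75 in Sub-fertile cows (-1.24, SE 0.28, adjusted p = 0.226) and an intercaruncular difference of -0.12.

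In the TGF-beta superfamily 34 of 41 genes passed, with 3 higher and 2 lower in caruncular and 5 higher and 2 lower in intercaruncular tissue (background 7.01% and 6.75% in caruncular, 6.64% and 6.96% in intercaruncular tissue; medians 0.11 and 0.14). MSTN, the ligand myostatin, ran in intercaruncular tissue from -2.12 to -0.86 (median -1.49) in Fertile and from -1.04 to 2.06 (median 0.03) in Sub-fertile cows (1.66, SE 0.45, adjusted p = 0.176), and the cyclic median was 0.45. BMP6, a bone morphogenetic protein, separated the intercaruncular classes (-0.49 to -0.27 and -0.05 to 0.50; 0.54, SE 0.10, adjusted p = 0.0915). GREM1, a secreted antagonist of BMPs, differed by 0.69 (SE 0.17) in the same tissue. SMAD7, which blocks signalling inside the cell, went the other way, with a caruncular difference of -0.49 (SE 0.10, adjusted p = 0.226), where its classes were apart (-0.34 to 0.10 and -0.78 to -0.39), and its intercaruncular difference was -0.71 (SE 0.17, adjusted p = 0.156). A second probe of SMAD7 differed by -0.19 and -0.08. None of these was called by limma.

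The WNT list had 33 of 40 genes past the filter, 2 higher and 4 lower in caruncular (background 7.01% and 6.75%) and 3 higher and 8 lower in intercaruncular tissue (background 6.64% and 6.96%; median -0.13). The intercaruncular count of 8 was 3 to 8 when 1 cow was left out and 4 with the slide as a block. WNT6 was on the higher side, as given above. AXIN2, a feedback inhibitor that canonical signalling induces, differed by -0.46 (SE 0.19) and -0.55 (SE 0.24), and FZD6, a receptor, by -0.49 (SE 0.21) and -0.38 (SE 0.14), in caruncular and intercaruncular tissue.

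Genes of gluconeogenesis, glycolysis and the insulin and growth hormone axis, other than PCK1, showed no common direction. Of 46 genes of gluconeogenesis and glycolysis 38 passed, with 3 lower in each tissue, 0 higher in caruncular and 1 higher in intercaruncular tissue, with medians of 0.05 and -0.06 (background 7.01% higher and 6.75% lower in caruncular, 6.64% and 6.96% in intercaruncular tissue). FBP1, which acts after PCK1 in gluconeogenesis, spread over more than 5 log2 units in caruncular tissue of Sub-fertile cows (-3.96 to 1.60, median -2.18; Fertile -1.36 to 1.97, median 0.63), and its difference of -2.27 (SE 0.95, adjusted p = 0.329) was not called. PPARGC1A, a coactivator of gluconeogenic genes, differed by 0.25 (SE 0.22) and -0.53 (SE 0.14). PPARD, a nuclear receptor for fatty acids, was on the lower side in both tissues (-0.56, SE 0.17, and -0.42, SE 0.26). Of 30 insulin and growth hormone axis genes past the filter 2 were higher and 1 lower in caruncular tissue. INSR, the insulin receptor, and IGF2R, which clears insulin-like growth factor 2, both differed there by 0.30 (SE 0.11 and 0.10, adjusted p = 0.306 and 0.286).

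Of 43 histotroph genes, which encode secreted products of the uterus, 36 passed, with 2 higher and 1 lower in caruncular and 4 higher and 1 lower in intercaruncular tissue, with medians of 0.03 and 0.05 (background 7.01% and 6.75% in caruncular, 6.64% and 6.96% in intercaruncular tissue). STC1 was the member called. SPP1, the adhesion protein osteopontin, ran in caruncular tissue from -3.11 to 2.01 (median 0.71) in Fertile and from 1.07 to 3.17 (median 1.66) in Sub-fertile cows. Fertile cows F926 and F9246, at -1.82 and -3.11, were the 2 low samples, and the difference of 1.72 (SE 0.81, adjusted p = 0.373) was not called. SERPINA14, the uterine milk protein, overlapped in both tissues, with differences of -0.82 (SE 0.49) and -0.14 (SE 0.45).

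Among 29 genes of junctions and keratins past the filter, 1 was higher and 3 lower in caruncular and 4 higher and 3 lower in intercaruncular tissue at an unadjusted p under 0.05, where 7.01% and 6.75% of all caruncular probes and 6.64% and 6.96% of all intercaruncular probes were. CLDN1 and CLDN4, both claudins that seal tight junctions, differed in opposite directions in intercaruncular tissue. CLDN1 ran from 0.07 to 0.85 in Fertile and from -0.97 to 0.04 in Sub-fertile cows (-0.74, SE 0.19, adjusted p = 0.168; second probe -0.52), and CLDN4 from -1.26 to 0.42 and from 0.34 to 1.77 (1.16, SE 0.30, adjusted p = 0.169). KRT7, a keratin of simple epithelia, differed by 0.70 (SE 0.18). Developmental transcription factors, with 42 of 54 past the filter, had 4 higher and 2 lower in caruncular and 6 higher and 3 lower in intercaruncular tissue, and TFAP2C was the member called. Cell cycle genes had 8 higher and 0 lower of 35 in caruncular tissue (median 0.19) and 2 higher and 2 lower in intercaruncular tissue (median 0.07). The differences were small, as for PCNA, the clamp of DNA replication (0.30, SE 0.10), and AURKB, a mitotic kinase (0.21, SE 0.07), and the caruncular count was 4 to 12 when 1 cow was left out.

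Lists of cell type markers held no called gene. In caruncular tissue 7.01% of all probes were higher and 6.75% lower at an unadjusted p under 0.05, and in intercaruncular tissue 6.64% and 6.96%. Of 6 T lymphocyte genes past the filter (of 10 listed) 1 (CD27, a costimulatory receptor) was higher in either tissue at an unadjusted p under 0.05, and all 6 caruncular differences were above 0, with a median of 0.23. Of 5 NK cell genes (of 8) NKG7, a protein of cytotoxic granules, was higher in caruncular tissue at an unadjusted p under 0.05 (-0.10 to 1.02 in Fertile, 0.78 to 1.24 in Sub-fertile cows; 0.75, SE 0.18, adjusted p = 0.246). SELPLG, the ligand of P-selectin on leukocytes, is on none of these lists of cell type markers. In caruncular tissue SELPLG ran from -0.08 to 0.54 and from 0.35 to 1.11 (0.69, SE 0.15, adjusted p = 0.226), with an intercaruncular difference of 0.14. Of 4 B and plasma cell genes (of 8) 1 was higher in each tissue, CD79A, a subunit of the B cell receptor, among them in intercaruncular tissue, and all 4 differences were above 0 in both, with medians of 0.24 and 0.49. Of 4 mast cell genes (of 5) none had an unadjusted p under 0.05, and 3 differences in caruncular tissue (median 0.04) and all 4 in intercaruncular tissue (median 0.45) were above 0. None of the 9 macrophage genes, all of which passed the filter, had an unadjusted p under 0.05 in either tissue. Of their differences 4 were above 0 in each tissue (median -0.01 in both). Of the 3 neutrophil genes 0 differences were above 0 in caruncular tissue (median -0.66) and 1 in intercaruncular tissue (median -0.04). Of 7 smooth muscle genes, 2 were lower in intercaruncular tissue (median -0.36), with mean levels from -0.95 to 0.13 in Fertile and from -1.61 to -0.47 in Sub-fertile cows. Of the 8 stroma genes 1 was higher there, and the median was -0.04. Of 5 gland genes (of 6) 1 was lower in intercaruncular tissue (median -0.01) and 0 in caruncular tissue (median 0.13). Of 7 endothelial genes 1 was higher in each tissue. Their differences were above 0 at 7 genes in caruncular (median 0.24) and 6 in intercaruncular tissue (median 0.08). Of 2 red cell genes (of 5) 1 was lower in intercaruncular tissue (median -0.30).

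The other lists of pathways (antigen presentation, transport of sugars and amino acids, fatty acid metabolism, adhesion, matrix, matrix proteases, immediate early and heat shock genes, and hypoxia) held no called gene, and their median differences lay between -0.18 and 0.14 in either tissue. Both ends of that range belong to different tissues, with -0.18 for immediate early and heat shock genes in caruncular and 0.14 for adhesion genes in intercaruncular tissue. Of 28 immediate early and heat shock genes 4 were lower and 1 higher in caruncular tissue at an unadjusted p under 0.05 (background 6.75% and 7.01%), and 0 in intercaruncular tissue (background 6.96% and 6.64%).

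A pair of probes gave levels in 2 separate ranges, the same in both tissues of a cow. POLR1H, a subunit of RNA polymerase I, lay between -3.57 and -2.97 in both tissues of 4 of 6 Sub-fertile cows (S977, S3803, S3805 and S9921), and in 0 of 6 Fertile and 0 of 10 cyclic cows. In the other Sub-fertile cows it lay between -0.86 and -0.36, and in Fertile cows between -0.32 and 0.73. The mean difference was -2.78 (SE 0.53, adjusted p = 0.226) in caruncular and -2.73 (SE 0.50, adjusted p = 0.0834) in intercaruncular tissue, and every Sub-fertile cow was below every Fertile cow in both. GPATCH11, a protein with a G-patch domain, lay between -3.27 and -2.95 in both tissues of 3 of 6 Fertile cows (F932, F3957 and F9246), in 0 of 6 Sub-fertile cows and in 1 of 10 cyclic cows, with values from -0.73 to -0.08 in the other Fertile and from -0.43 to 0.80 in Sub-fertile cows. Its differences were 2.20 (SE 0.51, adjusted p = 0.236) and 2.08 (SE 0.58, adjusted p = 0.188). On both probes no pregnant cow lay between the ranges, and no cow was low in 1 tissue and not in the other. Each is the signal of 1 probe, and whether the ranges follow the amount of transcript or its binding to the probe was not tested.

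**Figure D5:**
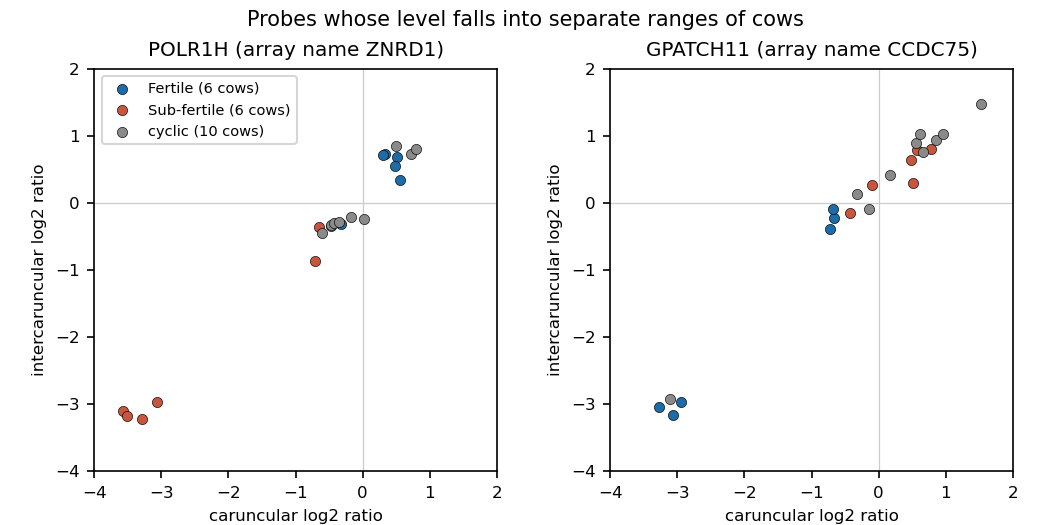
Caruncular level (x axis) against intercaruncular level (y axis) of POLR1H and GPATCH11, as log2 ratios to the pool, with 1 point a cow, coloured by class. Low cows form a group near -3 on both axes, made of 4 Sub-fertile cows for POLR1H, and of 3 Fertile cows and 1 cyclic cow for GPATCH11.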

How the data were processed

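Endometrial RNA of 12 pregnant cows (6 Fertile, 6 Sub-fertile) was examined in both tissues, beside 10 cyclic cows. The files that the authors deposited hold the spot intensity of each dye and log10 ratios of Cy5 (sample) to Cy3 (pool), made with Agilent Feature Extraction (version 9.5.3.1 per the file headers), which subtracted background, flagged outlying spots and normalised the dyes by LOWESS. The authors' deposited table of log2 ratios served as an alternative, with 14505 of the probes tested, and its centring is not stated (medians of its columns -0.0283 to 0.0587). There was no dye swap.

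Log ratios were taken to log2, spots of a probe were averaged without flagged ones, and the array median was subtracted. Probes well above background and with a signal of 80 units or more in 22 or more of the 44 samples were tested (14717; the study's filter used the flags of its own software and raw signal), and 17086 of 21475 probes had a gene symbol, from the description on the array or the reference table of the ARS-UCD assembly. A gene of a list was represented by its brightest probe. Differences were tested with limma 3.58.1 in R 4.3.3 and called at a Benjamini-Hochberg adjusted p under 0.05. The fit of each tissue was also run on simulated data with independent noise, without slide effects or missing values. That run cannot show how slides, single cows or missing values affect the calls. Cow numbers pair the tissues: deviations of a cow's 2 tissues from the class means correlated at 0.336 to 0.722 in all 12 cows. The R package data.table (version 1.17.8), Python 3.11.15, pandas 2.3.3, numpy 2.4.6 and matplotlib 3.10.9 were used.

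Alternatives were normexp (offset 50) with loess, no centring, centring on the probes tested, no filter, a strict filter, a filter within pregnant samples, the deposited table, the methods' t-test, slide or scan date as a block, embryo size as a covariate, cyclic cows in the fit, either array of the repeated sample, the cow as a replicate block, the mean of a gene's probes in the lists, and each cow left out. Centring on the probes tested and the counts of list members under each alternative were chosen after seeing the data. The named genes were the called probes, the 10 of lowest p in each direction at a difference of at least 0.58, up to 4 members of each list and a fixed set, of which LGALS15 was not analysed here. Some genes that this rule names are not reported here. The comparison, the lists and the named genes were chosen with earlier results of these data known. The number of cows limits the precision. Over probes, the SD of the difference between the arrays of the repeated sample was 0.102. The SD of a probe between the cows of a class, a measure of another kind, had medians of 0.205 to 0.253.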

Additional observations from a re-analysis of the deposited data

Results flagged for a closer look

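Of 457 groups of 6 cows, 24 held 1 cow far from the others by Dixon's ratio, and chance flags about 1 in 20 groups. A group was a gene, a list, the share of spots well above background or the signal over background, in 1 tissue and class. No explanation was tested for any of them.

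Sub-fertile cow S9790, hybridised on a later slide, accounted for several. In its intercaruncular sample PGR was at 0.42 (next cow -0.39), CLDN1 at -0.97 (next -0.17), a further probe of GAS7 at 0.70 (next -0.06), INSR at 1.10 (next -0.05) and PPARD at -1.49 (next -0.16), and in its caruncular sample AURKB was at 0.35 (next 0.46). The mean intercaruncular level of the lists was -0.24 for gluconeogenesis and glycolysis (next -0.06), 0.13 for the insulin and growth hormone axis (next -0.12) and 1.09 for mast cell markers (next 0.28). Its share of spots well above background was 82.4% in caruncular (next 72.9%) and 84% in intercaruncular tissue (next 73.9%), where its signal over background was 29.2 (next 18.4).

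The other Sub-fertile cows held 5 such values. In caruncular tissue SELPLG was at 0.35 in cow S3805 (next 0.84), and the T lymphocyte markers were at 1.17 in cow S977 (next 0.39). In intercaruncular tissue ADCY8 was at -2.19 (next -1.32) and BACE2 at 1.05 (next 0.56) in cow S3803, and KRT7 was at -0.56 in cow S9921 (next 0.29).

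Among Fertile cows, the caruncular values were POLR1H at -0.32 in cow F1943 (next 0.30), TIGD6 at 0.16 (next 0.02) and AREG at -0.95 (next -0.27) in cow F3957, and the developmental transcription factors at -0.05 in cow F9246 (next -0.28). The intercaruncular values were PTGES3 at -0.59 (next -0.10) and NR3C1 at 1.23 (next -0.28) in cow F926, and the NK cell markers at -0.54 in cow F932 (next 0.14).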

How the results depend on the processing

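No called probe changed sign under any setting run. In caruncular tissue the count of 0 calls became 1 with cyclic cows in the fit, and 0 to 2 when 1 cow was left out (1 without Fertile cow F3956, 2 without Sub-fertile cow S3805). The 7 intercaruncular calls became 4 with no filter, 0 by the methods' t-test (1808 at an unadjusted p under 0.05), 0 with the slide as a fixed and 3 with it as a random block, 43 with the scan date as a block and 11 with cyclic cows in the fit. Leaving out 1 cow gave 3 to 43 calls: 4 without Fertile cows F932 or F3957, 3 without Fertile cow F1943 or Sub-fertile cow S3803, and 43 without Sub-fertile cow S9790. The block for the scan date set apart the same cow S9790. On the mean of both tissues 2 calls became 7 with normexp and loess, 1 with no filter, 0 with a strict filter (1823 unadjusted), 0 by the methods' t-test (1878 unadjusted) and 22 with cyclic cows in the fit, 1 to 13 when 1 cow was left out (7 without Fertile cow F9246, 13 without S3803, 10 without S3805, and 4 without S9790 or S9921). With all 24 samples it was 569 without the replicate block, where the tissues of a cow count as 2, and 51 with a random replicate block for the cow (correlation 0.402). The contrast of the tissues gave 6 calls with a random replicate block for the cow, 0 with a fixed one, and 0 to 25 when 1 cow was left out, with 25 without cow S9790. The cause of these moves was not tested.

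PCK1 (mean) lost its call by the methods' t-test and with cyclic cows in the fit, of 13 settings other than leaving out 1 cow. TFAP2C (mean) lost its call in 2 of 13 such settings. In intercaruncular tissue CNGA3 lost its call in 6, GAS7 in 5, the brighter STC1 probe in 4 and PSPH in 3 of 13. RNPS1 lost it in 4, and TFAP2C and the dimmer STC1 probe in 2 each, of 12. Counts of list members that moved by over 1.5 times were, for interferon genes lower in caruncular tissue (18), 0 to 32 under other settings and 7 to 29 when 1 cow was left out, for chemokines there (8) 2 with the scan date as a block, 3 with no filter, by the methods' t-test or with the slide as a block and 1 to 8 without 1 cow, for cholesterol genes 7 and 9, for cell cycle genes 4 to 12 without 1 cow, and for WNT genes 4 by the methods' t-test or with the slide as a block, 5 with the scan date and 3 to 8 without 1 cow. With the mean of a gene's probes 146 of 148 list medians moved by at most 0.1 and 3 changed sign, and those of NK cells became 0.17 (intercaruncular) and 0.26 (mean).

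Slide and class were largely shared outside the 4 cows of 1 slide in each tissue (the slide scanned later also held a repeat caruncular array of F926 beside S9790). The fertility class has 6 cows a side, the pool was not swapped to the other dye, and probes near background on some arrays (PCK1, STC1, CCL21) have a less certain size of difference.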
